A study of Gallus gallus with 60 samples.

Results

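Gene expression in the cerebrum was compared between Lohmann Brown (LB) laying hens kept in groups of 54 and LB hens kept in groups of 36. The comparison took in every LB hen of the series, 30 of 60 hens, and the hens were assigned by the group size and layer line in their titles. Of these 30 hens, 16 came from groups of 54 (LB 54) and 14 from groups of 36 (LB 36). The other 30 hens were of the Lohmann Selected Leghorn (LSL) line, 14 from groups of 54 and 16 from groups of 36, and served only to ask whether the differences of the LB hens stood apart from those of LSL hens.

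LB hens are brown-egg layers and LSL hens white-egg layers, both commercial lines. All hens were 65 to 68 weeks old and lived in 1 flock in a small group housing system of stacked compartments, in which larger groups had larger compartments, so that the number of companions and the size of the compartment varied together. RNA came from the posterior cerebrum, described as the right side in the labels, taken without meninges, and was hybridised to 1 whole-transcript array per hen. Hens had been picked as stressed or unstressed birds from their handling behaviour, plumage and skin lesions, a few from each compartment, but the labels give neither that status nor the compartment or tier of a hen. Hens of 1 compartment share their group size, so the p-values below, which count hens, may be too small and the intervals too narrow.

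In birds, as in mammals, the response to a stressor runs from corticotropin-releasing hormone (CRH) and vasotocin, the avian form of vasopressin, over the pituitary product of pro-opiomelanocortin (POMC) to corticosterone from the adrenal gland. Corticosterone reaches the brain and acts there through the glucocorticoid receptor (NR3C1) and the mineralocorticoid receptor (NR3C2). Group size and rank order are known to bear on the behaviour and stress of domestic fowl, and the posterior cerebrum of birds holds pallial areas concerned with fear and social behaviour.

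In all, 16317 rows of the table were tested, each a value from 1 or more probe sets on a log2 scale. No row passed an adjusted p of 0.05 for LB 54 against LB 36 (limma, Benjamini-Hochberg adjustment, 0 rows or 0.0%). The smallest adjusted p was 0.209. The methods' t-test also gave 0 rows, with 1206 at an unadjusted p under 0.05. In the limma fit, an unadjusted p under 0.05 was reached by 1223 rows (7.5%), of which 485 were higher (2.97%) and 738 lower (4.52%) in LB 54. Among 7336 named genes, each taken at its brightest row, 481 reached that limit (6.56%), 220 of them higher (3.0%) and 261 lower (3.56%). Values at the unadjusted limit are given below as descriptions of genes that did not pass the test.

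The differences were small. Their standard errors and intervals count hens as independent and may be too narrow. The standard error of a difference had a median of 0.0657 on the log2 scale, and the 95% interval reached a median of 0.134 to either side. For 16295 rows (99.87%) the interval lay inside a 2-fold difference in either direction, and for 12265 rows (75.17%) inside a 1.2-fold difference. The estimate itself was under 1.1-fold for 14447 rows (88.54%) and at least 1.5-fold for 15 rows, none of which had a single gene name. No row separated the group sizes completely. Of the variance over all rows among LB hens, 4.135% lay between the group sizes. Any split of the hens into 2 groups holds some share, and this one was not tested against other splits.

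The main axes of variation among LB hens were compared between the group sizes. Component 1 held 24.4% of the variance, with scores of -14.8 to 25.6 in LB 54 hens and -11.1 to 25.8 in LB 36 hens (two-sided permutation test, p = 0.560, adjusted p = 0.748 over 3 components). Component 1 followed 2 sets of arrays. The larger one held 12 LB 54 and 10 LB 36 hens, and the smaller one 4 LB 54 and 4 LB 36 hens. The sets were cut from these same values, at the widest gap on the first component of all 60 arrays less their group means. Their separation on component 1 follows from how they were drawn, and their origin is not given in the sources used here. Component 2 held 10.5% of the variance. Its scores had a median of 1.16 in LB 54 hens (-7.96 to 18.9) and of -6.65 in LB 36 hens (-15.0 to 14.3), and the means differed by 7.75 (permutation p = 0.0251, adjusted p = 0.0752), so that it did not pass the adjusted threshold. Among named genes it weighted JCHAIN, MIR100 and OSR1 most toward the side of higher LB 54 scores, and TAC1, which encodes substance P, and the transcription factors DLX6 and TWIST2 most toward the other side.

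Hormones of the stress axis came first among the genes of interest. Only cerebrum was sampled, neither pituitary nor adrenal gland, so their values do not measure the response of the axis. CRH, POMC and AVP lay below the median level of named genes, 7.71. CRH, the peptide that starts the pituitary-adrenal response, measured 6.43 to 6.96 in LB 54 hens (median 6.64) and 6.47 to 6.94 in LB 36 hens (median 6.61). The ranges of both group sizes were almost the same, and the difference was -0.0050 on the log2 scale (95% interval -0.12 to 0.11). POMC, the precursor of corticotropin and beta-endorphin, measured 5.66 to 6.33 in LB 54 hens (median 6.06) and 6.04 to 6.45 in LB 36 hens (median 6.23). Of the 16 LB 54 hens, 12 lay below the LB 36 median, and the mean was lower by 0.17 (standard error 0.06, p = 0.0064, adjusted p = 0.554). AVP, which encodes vasotocin, measured 6.12 to 6.96 in LB 54 hens (median 6.50) and 6.38 to 7.02 in LB 36 hens (median 6.68). Here 13 of 16 LB 54 hens lay below the LB 36 median. The AVP difference was -0.19 (95% interval -0.35 to -0.03, adjusted p = 0.629). Its neighbour OXT, the gene of mesotocin, the avian oxytocin, had a difference of -0.03 (95% interval -0.15 to 0.09).

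The receptors that read corticosterone differed by less than POMC and AVP. NR3C1 measured 7.73 to 8.25 in LB 54 hens (median 7.93) and 7.72 to 8.14 in LB 36 hens (median 7.88), a difference of 0.03 (95% interval -0.06 to 0.13). NR3C2 measured 9.65 to 10.3 in LB 54 hens (median 9.87) and 9.58 to 10.2 in LB 36 hens (median 9.76), a difference of 0.08 (95% interval -0.06 to 0.23). Both receptors overlapped over nearly their whole range. Of a list of 20 stress axis genes 11 were measured, and POMC and AVP were the 2 at the unadjusted limit, both lower (18.2% of the list against 6.56% of all named genes). The median difference of the list was -0.05, and that of all named genes 0.0047. With neighbouring hen numbers taken as pairs, 1 of the 11 genes, POMC, was at the limit (9.09%, against 3.09% of named genes). The array set as a block gave 4 of the 11 (36.4%, against 9.62% of named genes). NR3C2 was among these 4 (limma with the array set as a block, unadjusted p = 0.013). None of 12 measured genes listed as responding to glucocorticoids was at the limit, against 6.56% of named genes. Among the 12, SGK1, a kinase induced by corticosteroids, differed by 0.02. PDK4, which curbs glucose oxidation, differed by 0.27 (p = 0.099). The 12 include rows that the array annotation calls TSC22D3 and ZBTB16, but whose updated symbols are TSC22D4 and ZBTB32. CRHR1, FKBP5 and TH had no row above the limit on low values and are not analysed here.

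Genes switched on by neuronal activity overlapped between the group sizes. FOS, an immediate early transcription factor, measured 5.97 to 7.04 in LB 54 hens (median 6.54) and 5.79 to 6.89 in LB 36 hens (median 6.31). EGR1, another immediate early factor, measured 10.0 to 10.7 in LB 54 hens (median 10.3) and 9.99 to 10.8 in LB 36 hens (median 10.3). The differences were 0.10 for FOS and 0.02 for EGR1, each with a 95% interval across 0. BDNF, a neurotrophin that supports synaptic plasticity, measured 6.78 to 7.72 in LB 54 hens (median 7.32) and 6.76 to 7.46 in LB 36 hens (median 7.15). Its difference was 0.16 (95% interval -0.03 to 0.35). None of the 16 measured immediate early genes was at the unadjusted limit, against 6.56% of named genes. An estimate above 0 was found for 14 of the 16, and for 3866 of all 7336 named genes. The median difference of the 16 was 0.03.

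**Figure D1:**
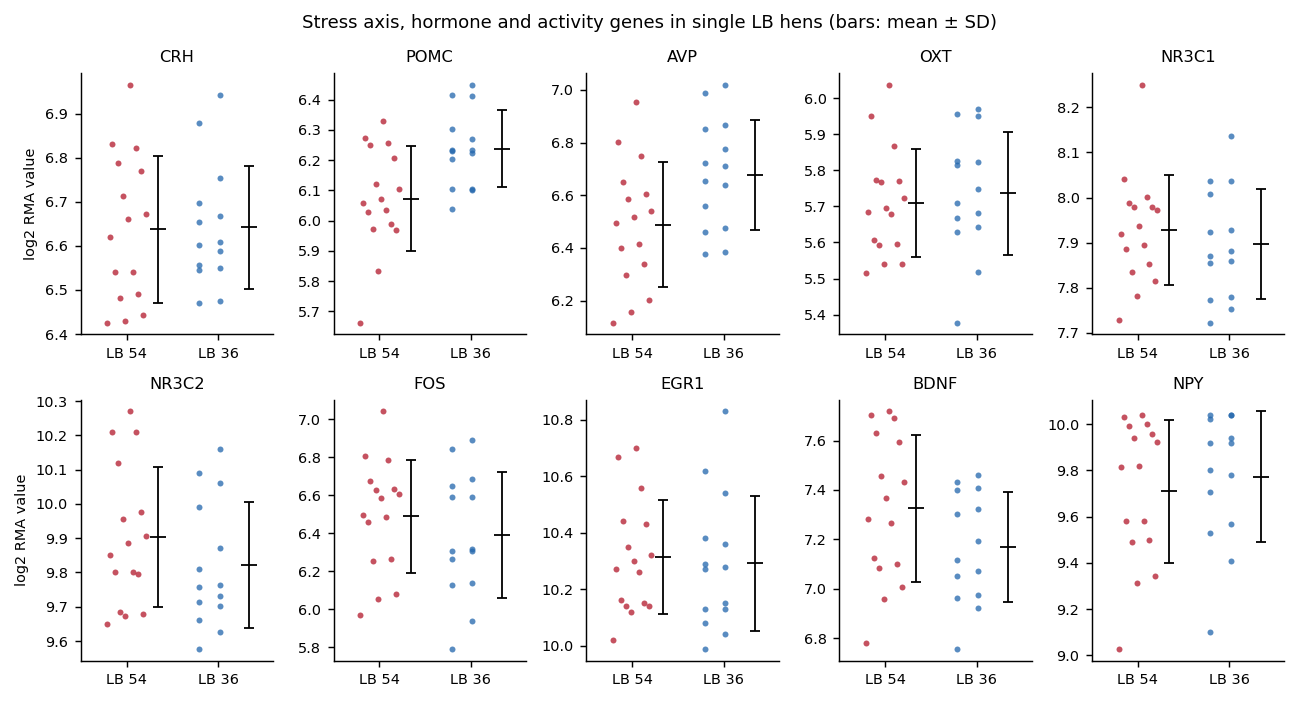
Log2 RMA values of 10 stress axis, hormone and activity genes in single LB hens, with LB 54 hens in red and LB 36 hens in blue, and the mean ± SD beside each group (n = 16 and n = 14). The points of both group sizes overlap in every panel, with POMC and AVP lower on average in LB 54 hens by 0.17 and 0.19.

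Transmitter systems were described by the lists of their genes. Of 23 measured monoamine genes 1 was at the unadjusted limit (4.35%, against 6.56% of named genes). This was TPH1, a tryptophan hydroxylase that makes the serotonin precursor, with a median of 5.07 in LB 54 hens and 5.20 in LB 36 hens and a difference of -0.14 (adjusted p = 0.643). TPH1 lay near the limit on low values of 5.08, and its LSL difference was -0.13. With hen pairs as a block no monoamine gene was at the unadjusted limit, against 3.09% of named genes. DRD1, a dopamine receptor, measured 7.97 to 8.92 in LB 54 hens (median 8.43) and 7.98 to 8.95 in LB 36 hens (median 8.46), a difference of -0.04 (95% interval -0.22 to 0.14). None of 27 GABA and glutamate receptor genes was at the limit, against 6.56% of named genes. The differences of the 27 ran from -0.10 to 0.16.

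Among 39 neuropeptide and receptor genes, 1 was higher and 2 lower in LB 54 at the unadjusted limit (7.69% of the list, against 6.56% of named genes). GALR2, a receptor of galanin, had medians of 6.14 in LB 54 hens and 6.34 in LB 36 hens and a difference of -0.24 (95% interval -0.41 to -0.07, adjusted p = 0.554). GRPR, the receptor of gastrin-releasing peptide, had medians of 6.16 in LB 54 hens and 5.91 in LB 36 hens and a difference of 0.18 (adjusted p = 0.638). The GRPR difference was 0.29 within the larger set of arrays and -0.10 within the smaller. NPY, a peptide that drives feeding, differed by -0.06 (95% interval -0.28 to 0.15), with LB 54 hens at 9.03 to 10.04 and LB 36 hens at 9.10 to 10.04.

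At the synapse and in development, single genes stood at the limit in lists that otherwise did not. Their shares were 8.33% for vesicle release, 6.67% for neurotrophins and plasticity kinases and 4.0% for neurogenesis and cell division, against 6.56% of named genes. SNCG, a synuclein of neurons, was 1 of 12 vesicle release genes and differed by -0.17 (adjusted p = 0.597), though by 0.0687 within the smaller set of arrays. SHANK2, a scaffold of the postsynaptic density, was 1 of 15 genes of neurotrophins and plasticity kinases and differed by 0.10 (95% interval 0.02 to 0.18). DLL1, a Notch ligand that keeps neural progenitors from differentiating, was 1 of 25 genes of neurogenesis and cell division. It had medians of 6.73 in LB 54 hens and 7.00 in LB 36 hens and a difference of -0.26 (95% interval -0.47 to -0.04, adjusted p = 0.616). MKI67, a marker of dividing cells, differed by -0.02 and PCNA, the sliding clamp of replication, by 0.04. None of 21 heat shock and folding genes and none of 21 genes of oxidative stress was at the limit.

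Of 31 immune genes, 2 were higher and 2 lower at the unadjusted limit (12.9% of the list, against 6.56% of named genes). With hen pairs as a block the 2 lower ones were at the limit (6.45%, against 3.09% of named genes). The array set as a block gave 5 of the 31 (16.1%, against 9.62% of named genes). IFIH1, a sensor of viral RNA, differed by 0.13 and IL18, an inflammatory cytokine, by 0.16 (adjusted p = 0.629 and 0.654). TAP1, a gene of peptide transport for class I molecules, differed by -0.14 and the complement gene C4 by -0.19 (adjusted p = 0.577 for both). C4 was measured by 1 probe set. IL18 had a difference of -0.03 within the smaller set of arrays. JCHAIN, the joining chain of secreted antibodies, which the array annotation calls IGJ, spread more than any of these. It measured 5.87 to 9.22 in LB 54 hens (median 7.63) and 5.96 to 9.63 in LB 36 hens (median 7.44). The 2 ranges covered each other, and the difference of 0.30 had a 95% interval of -0.45 to 1.06.

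Of 12 genes of thyroid hormone and the circadian clock, 2 were lower at the unadjusted limit (16.7% of the list, against 6.56% of named genes). With hen pairs as a block 1 was (8.33%, against 3.09%), and with the array set as a block 2 were (16.7%, against 9.62%). DIO3, the deiodinase that inactivates thyroid hormone, was measured by 1 probe set. It had medians of 6.66 in LB 54 hens and 6.83 in LB 36 hens, and all 16 LB 54 hens lay below the LB 36 median. Its difference was -0.15 (95% interval -0.26 to -0.03, adjusted p = 0.559). THRA, a thyroid hormone receptor, differed by -0.10 (adjusted p = 0.633). DIO2, the deiodinase that makes the active hormone, differed by 0.14 (p = 0.12).

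Of 10 genes that the study discusses for the layer lines, none was at the limit for group size in LB hens. Of all named genes 6.56% were. COMTD1, a gene of the catechol O-methyltransferase family, measured 8.52 to 9.57 in LB 54 hens (median 9.03) and 8.79 to 9.70 in LB 36 hens (median 9.10), a difference of -0.14 (95% interval -0.31 to 0.03). AKR7A2, an aldehyde reductase, had a median of 7.72 in LB 54 hens and of 7.72 in LB 36 hens, and a difference of 0.04 (95% interval -0.06 to 0.13).

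**Figure D2:**
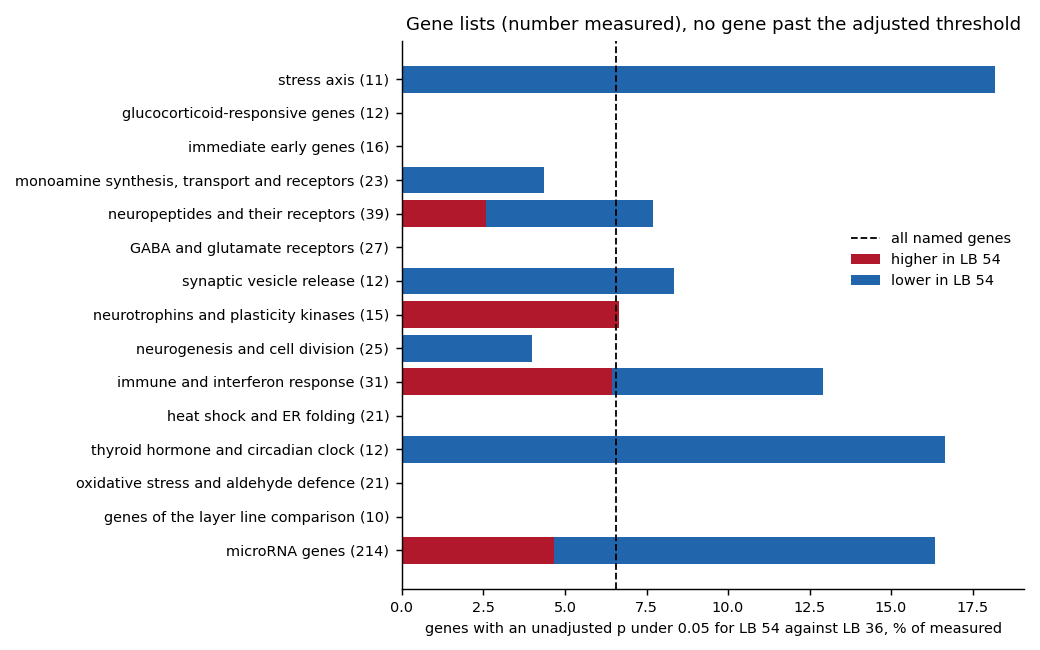
Share of measured genes with an unadjusted p under 0.05 for LB 54 against LB 36 in each gene list of 10 or more measured genes, in percent, with the part higher in LB 54 in red and the part lower in blue. The dashed line marks 6.56% for all named genes, and microRNA genes with 16.4%, stress axis genes with 18.2% and thyroid and clock genes with 16.7% lie farthest above it, the last 2 lists with 2 genes each.

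Named genes with the smallest p-values included several that are best known outside the brain. TEKT3, a tektin of sperm flagella and cilia, measured 6.37 to 6.92 in LB 54 hens (median 6.68) and 6.70 to 7.03 in LB 36 hens (median 6.93). All 16 LB 54 hens lay below the LB 36 median, while the ranges overlapped. The mean was 6.67 ± 0.15 in LB 54 hens and 6.90 ± 0.10 in LB 36 hens (SD, n = 16 and n = 14), or 1.18-fold lower in LB 54 (adjusted p = 0.209). DDX25, an RNA helicase known from the testis, measured 5.21 to 5.64 in LB 54 hens (median 5.48) and 5.45 to 5.95 in LB 36 hens (median 5.76). All 16 LB 54 hens again lay below the LB 36 median. The DDX25 mean was 1.2-fold lower in LB 54 (difference -0.26, 95% interval -0.37 to -0.15, adjusted p = 0.209), at a level near the limit on low values of 5.08.

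RAD21L1, a cohesin subunit known from meiosis, measured 7.04 to 7.69 in LB 54 hens (median 7.40) and 6.83 to 7.39 in LB 36 hens (median 7.07). Of the 16 LB 54 hens 15 lay above the LB 36 median, and the mean was 1.2-fold higher (adjusted p = 0.242). FKBP9, a prolyl isomerase of the endoplasmic reticulum, measured 8.26 to 8.83 in LB 54 hens (median 8.63) and 7.89 to 8.79 in LB 36 hens (median 8.30). It was 1.21-fold higher (adjusted p = 0.423), by 0.18 within the larger set of arrays and by 0.50 within the smaller. TUBD1, a tubulin of centrioles, had medians of 7.13 in LB 54 hens and 6.88 in LB 36 hens (adjusted p = 0.454). H2AFJ, a histone H2A variant on 1 probe set, had medians of 6.38 in LB 54 hens and 6.05 in LB 36 hens and a difference of 0.34 (adjusted p = 0.472). GATM, which makes the precursor of creatine, had medians of 6.38 in LB 54 hens and 6.13 in LB 36 hens (difference 0.30, adjusted p = 0.490). The remaining genes of this kind on the higher side were ZNF770, SAYSD1, NOM1, SHROOM2 and the palmitoyltransferase gene ZDHHC7, with differences of 0.11 to 0.22.

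On the lower side GATA4, a transcription factor of heart and gut development, measured 5.31 to 6.12 in LB 54 hens (median 5.62) and 5.73 to 6.22 in LB 36 hens (median 5.90). It was 1.21-fold lower (adjusted p = 0.454). GINS1, a subunit of the replicative helicase, measured 6.97 to 7.84 in LB 54 hens (median 7.47) and 7.38 to 7.94 in LB 36 hens (median 7.71). Of 16 LB 54 hens 15 lay below the LB 36 median, and the mean was 1.2-fold lower (adjusted p = 0.454). The other rows of this kind were DCAKD, AGPAT2, which makes phosphatidic acid, TGM4, a transglutaminase, SUSD2, COL23A1, a transmembrane collagen, and LOC429348, with differences of -0.25 to -0.18. DCAKD was below the LB 36 median in all 16 LB 54 hens.

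**Figure D3:**
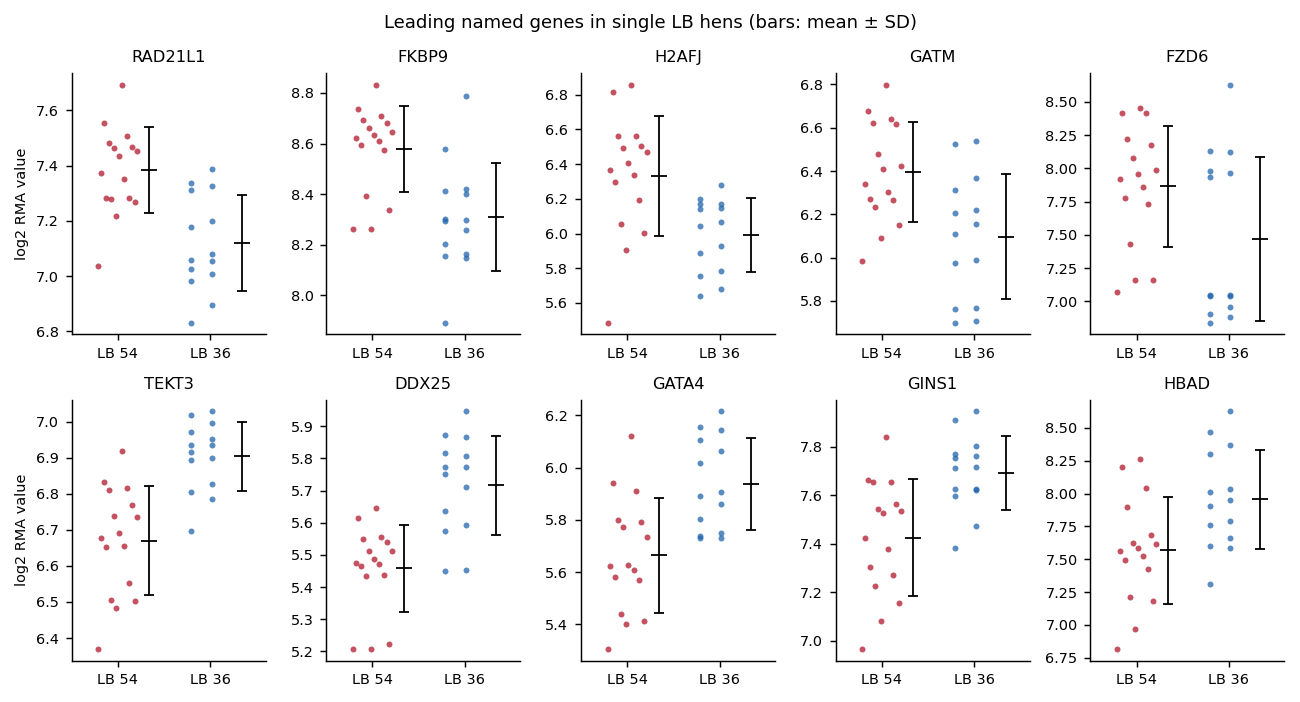
Log2 RMA values of 10 named genes among those with the smallest p or the largest differences, in single LB hens, with LB 54 in red and LB 36 in blue and the mean ± SD beside each group (n = 16 and n = 14). The upper 5 genes are higher and the lower 5 lower on average in LB 54 hens, and the ranges overlap in every panel, as for TEKT3 with 6.37 to 6.92 in LB 54 hens and 6.70 to 7.03 in LB 36 hens.

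The genes with the largest estimates are given with their spread among hens. KYNU, an enzyme of tryptophan breakdown, had the largest estimate of the named genes on the higher side, with 5.59 to 7.70 in LB 54 hens (median 6.55) and 5.60 to 7.21 in LB 36 hens (median 5.84). Its difference of 0.47 had a 95% interval of -0.03 to 0.97, and was 0.81 within the larger set of arrays and -0.42 within the smaller. FZD6, a Wnt receptor, measured 7.07 to 8.46 in LB 54 hens (median 7.94) and 6.84 to 8.63 in LB 36 hens (median 7.05). All 16 LB 54 hens lay above the LB 36 median, while some LB 36 hens were as high as they were. The FZD6 difference was 0.40 (95% interval 0.02 to 0.78, adjusted p = 0.639). It was 0.21 within the larger set of arrays and 0.90 within the smaller. TDRD12, a gene of the piRNA pathway, differed by 0.45 and CD36, a fatty acid receptor, by 0.39 (adjusted p = 0.559 and 0.638). Within the larger set of arrays TDRD12 differed by 0.25 and CD36 by 0.46, and within the smaller by 0.96 and 0.21. On the lower side LOC425137 differed by -0.37 (adjusted p = 0.853), with medians of 7.92 in LB 54 hens and 7.93 in LB 36 hens and a lowest LB 54 hen at 3.67.

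Globin genes, which mark the nucleated erythrocytes of birds, were lower in LB 54 hens by estimates that did not pass the test. HBAD, an alpha-type globin, measured 6.82 to 8.26 in LB 54 hens (median 7.57) and 7.31 to 8.63 in LB 36 hens (median 7.93). HBA1, its neighbour and the other adult alpha globin, measured 8.02 to 9.38 in LB 54 hens (median 8.74) and 8.38 to 9.84 in LB 36 hens (median 9.10). The differences were -0.39 for HBAD and -0.36 for HBA1 (adjusted p = 0.554 for both). The LSL differences were -0.12 for both. Of 11 erythrocyte markers 4 were measured. HBAD, HBA1 and SLC4A1, the anion exchanger of the red cell, were at the unadjusted limit (75% of the list, against 6.56% of named genes). With hen pairs as a block, 2 of the 4 were (50%, against 3.09% of named genes), and with the array set as a block 3 were (75%, against 9.62%). The summed level of the 4 markers was 9.08 to 10.1 in LB 54 hens (median 9.61) and 9.41 to 10.5 in LB 36 hens (median 9.85). In whole tissue, fewer cells of a type and less RNA per cell cannot be told apart, and whether the erythrocyte level had a part in other differences was not tested.

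Markers of the brain's own cells overlapped between the group sizes. The summed level of 6 neuronal markers was 13.9 to 14.0 in LB 54 hens and 13.8 to 14.0 in LB 36 hens. That of 6 astrocyte markers was 12.6 to 12.9 in LB 54 hens and 12.6 to 12.9 in LB 36 hens, and that of 5 oligodendrocyte markers 12.2 to 12.7 in LB 54 hens and 12.2 to 12.8 in LB 36 hens. No measured marker of neurons, astrocytes, oligodendrocytes and their precursors, microglia, vessels, choroid plexus, meninges or pallium was at the unadjusted limit. With the array set as a block, 2 of 6 choroid plexus markers were (33.3%, against 9.62% of named genes). The same block gave 1 of 6 pallium markers (16.7%). Of 5 striatal markers, PDE10A, a phosphodiesterase of striatal neurons, was at the limit (20% of the list, against 6.56% of named genes). Its difference was -0.11 (adjusted p = 0.640).

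MicroRNA genes make short RNAs that silence messenger RNAs by pairing with them. Their rows come from the same whole-transcript array, and whether they measured the short RNAs themselves was not tested. Of 214 microRNA genes 10 were higher and 25 lower in LB 54 hens at the unadjusted limit (16.4%, against 6.56% of named genes). None passed the adjusted threshold (smallest adjusted p 0.491). In all, 130 of the 214 were lower in LB 54 by any amount (60.8%, against 47.3% of named genes). All 214 were measured by 1 probe set each, at a median level of 6.45 against 7.71 for named genes, and with a median SD within a group size of 0.217 against 0.172. Among all rows with 1 probe set, 9.69% were at the limit, and among rows with more than 1, 7.1%. With hen pairs as a block the microRNA genes at the limit were 8 higher and 13 lower (9.81%, against 3.09% of named genes and 5.39% of rows with 1 probe set). The array set as a block gave 40 (18.7%, against 9.62% of named genes and 11.99% of rows with 1 probe set). Whether the low level or the single probe set had a part in the count was not tested. In LSL hens 2.34% of the microRNA genes were at the limit, against 3.0% of named genes, and 48.6% were lower in groups of 54.

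Single microRNA genes had small differences. MIR1719 measured 5.05 to 6.00 in LB 54 hens (median 5.71) and 4.81 to 5.99 in LB 36 hens (median 5.34), a difference of 0.32 (adjusted p = 0.541). MIR460B measured 5.08 to 6.04 in LB 54 hens (median 5.56) and 4.90 to 5.59 in LB 36 hens (median 5.29), a difference of 0.24 (adjusted p = 0.491). On the lower side MIR1629 measured 6.45 to 7.10 in LB 54 hens (median 6.86) and 6.75 to 7.44 in LB 36 hens (median 7.02), a difference of -0.18 (adjusted p = 0.554). The groups overlapped in each. MIR1790 stood on 2 rows of very different level. The brighter one measured 9.71 to 10.44 in LB 54 hens and 9.96 to 10.50 in LB 36 hens, a difference of -0.19 (adjusted p = 0.554), and the dimmer one differed by -0.37 with a lowest LB 54 hen at 2.75. MIR100, of a family that acts on growth signalling, had medians of 6.06 in LB 54 hens and 5.65 in LB 36 hens and a difference of 0.38 (adjusted p = 0.577). MIR103A2, of a family linked to lipid and insulin metabolism, differed by -0.46 (95% interval -0.92 to 0.0017), the lowest estimate of a named gene.

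A group of unnamed rows held the largest differences of the comparison. These 51 tested rows carry a single number as identifier and no gene name, and what they measure is not stated in the sources used here. Of the 51 rows 17 were higher and 1 lower in LB 54 hens at the unadjusted limit (35.3%, against 7.5% of all rows). The 51 made up 12 of the 15 rows with a difference of at least 1.5-fold. With hen pairs as a block 16 were higher at the limit (31.4%, against 3.61% of all rows). That block applied 1 correlation within pairs, 0.324, to every row. The array set as a block gave 18 at the limit (35.3%, against 10.4% of all rows). Row 15566295 measured 6.44 to 8.41 in LB 54 hens (median 7.51) and 5.25 to 7.44 in LB 36 hens (median 6.45). Of the 16 LB 54 hens 15 lay above the LB 36 median. Its difference was 1.02, or 2.03-fold (adjusted p = 0.209). Row 15566289 differed by 1.04 and row 15566273 by 0.89 (adjusted p = 0.220 for both).

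These rows moved together by pairs of consecutively numbered hens. The mean of the 17 rows, which were picked because they were higher and are described without a test, was 5.75 to 7.21 in LB 54 hens (median 6.63) and 5.03 to 6.75 in LB 36 hens (median 5.79). The 2 hens of a pair differed by a median of 0.21 in LB 54 and of 0.14 in LB 36, while the 8 pairs of LB 54 spanned 5.82 to 7.10 and the 7 pairs of LB 36 spanned 5.25 to 6.70. In the smaller set of arrays, with 2 pairs of each group size, LB 54 hens were at 6.75 to 7.21 and LB 36 hens at 5.20 to 5.39. In the larger set they overlapped, with 5.75 to 6.89 in LB 54 hens and 5.03 to 6.75 in LB 36 hens. In LSL hens the same mean was 5.33 to 6.85 in groups of 54 and 5.13 to 7.56 in groups of 36.

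**Figure D4:**
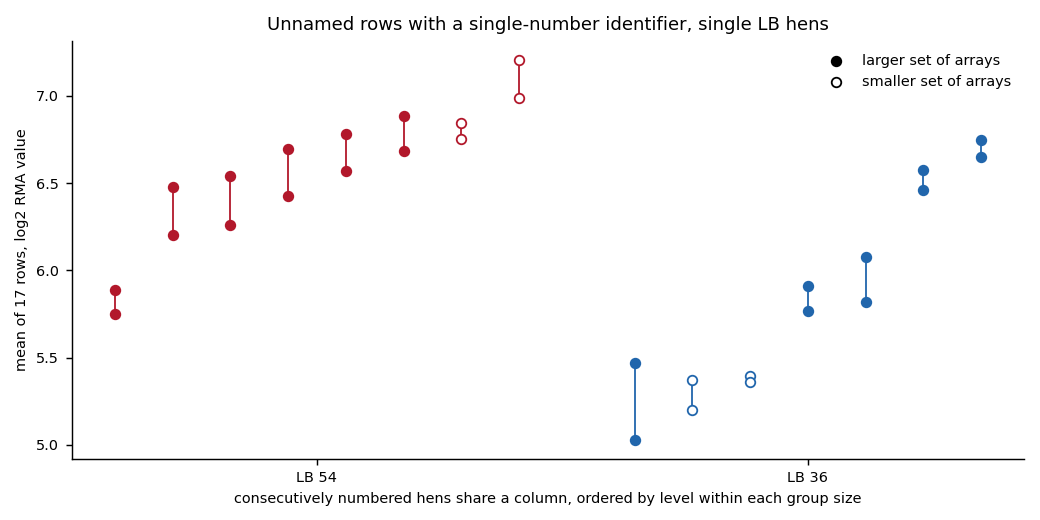
Mean log2 RMA value of the 17 unnamed rows that were higher in LB 54 hens at the unadjusted limit, 1 point per LB hen, with consecutively numbered hens joined in a column and open points for the smaller set of arrays. Hens of a column lie close together (median distance 0.21 in LB 54 and 0.14 in LB 36), and pairs of 1 group size span 5.82 to 7.10 in LB 54 and 5.25 to 6.70 in LB 36.

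The differences of LB hens were set beside those of LSL hens, which shared no hen with them. In LSL hens no row passed the adjusted threshold (smallest adjusted p 0.999), and 528 rows were at the unadjusted limit (3.24%). For the test of the difference between the lines (limma with 4 group means, 60 hens), no row passed either (smallest adjusted p 0.783), and 802 rows were at the unadjusted limit (4.92%). Over all rows the LB and LSL differences correlated with r = 0.04, a description across rows of the same arrays, which are not independent.

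RABL2A, a small GTPase of cilia that the array annotation calls RABL2B, had the smallest p of that test. It was 0.17 higher in LB hens from groups of 54 (medians 6.99 in LB 54 and 6.84 in LB 36), while the LSL difference was -0.16 (95% interval -0.28 to -0.05). The lines differed by 0.33 (standard error 0.08, adjusted p = 0.783). MIR1764 was -0.17 in LB hens and 0.20 in LSL hens, and GINS1 was -0.27 in LB hens and 0.10 in LSL hens (adjusted p = 0.783 for both). FKBP9 differed by 0.27 in LB hens and by -0.03 in LSL hens, and H2AFJ by 0.34 in LB hens and by -0.13 in LSL hens (adjusted p = 0.783 for both). POMC was -0.17 in LB hens and 0.07 in LSL hens, a difference between the lines of -0.24 (unadjusted p = 0.010, adjusted p = 1.0). It is given here as a stress axis gene and was not among the 5 named rows with the smallest p of that test. Other named genes had a smaller unadjusted p in it, among them TGM4 (0.00070) and TEKT3 (0.00089).

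**Figure D5:**
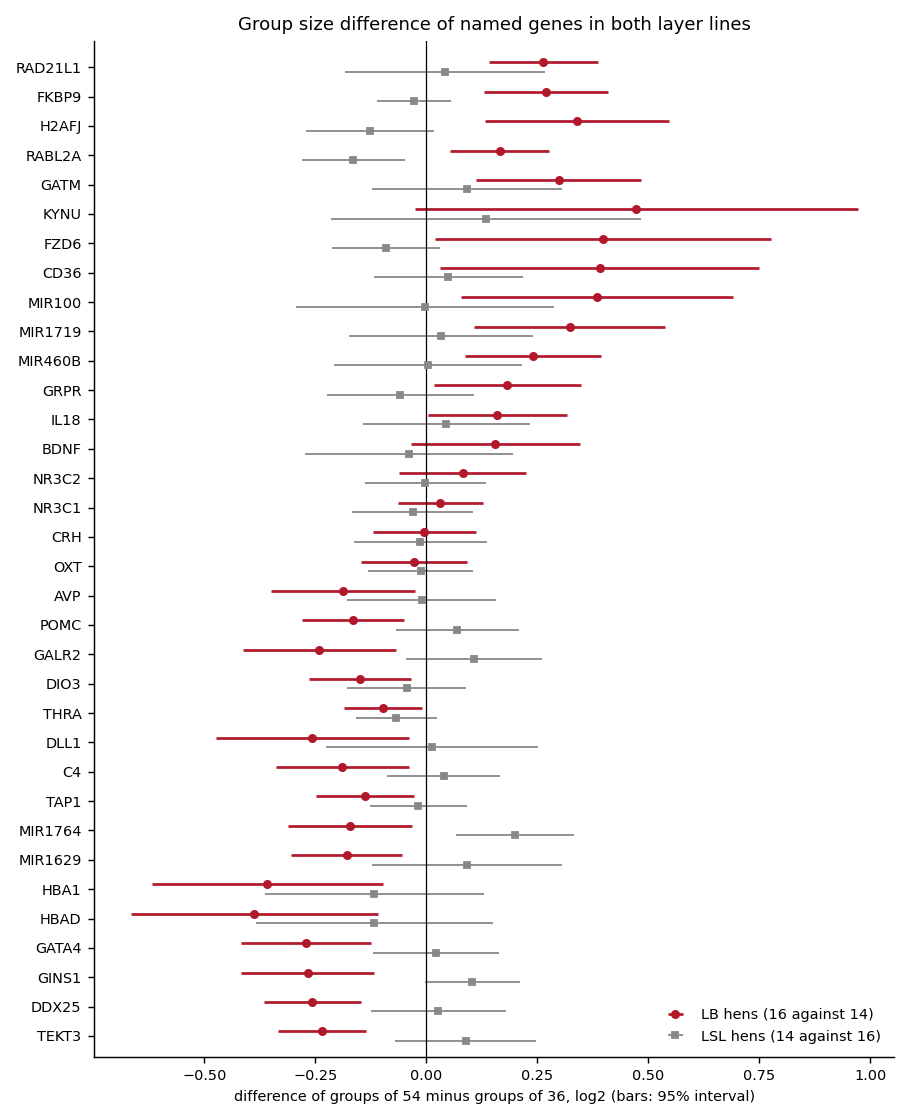
Difference of groups of 54 minus groups of 36 for 34 named genes, on the log2 scale with 95% intervals, in LB hens (red circles) and in LSL hens (grey squares). The intervals are those of single genes without adjustment, and RABL2A and MIR1764 are the genes with an LSL interval wholly on the other side of 0 from the LB interval, at 0.17 against -0.16 and at -0.17 against 0.20.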

How the data were processed

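The authors background-corrected and quantile-normalized the scans by RMA. The deposited log2 values cover 20399 rows, and a second table of 20396 rows held the same values. A row lists 1 or more probe sets (median 7 among tested rows). No sequencing depth applies, and the number of arrays limits the precision. Hens were matched through the number in the title, and groups follow the titles. Rows with a mean below the 20th percentile over all 60 arrays (log2 5.08) and 2 named control rows were left out. Of 16317 tested rows, 7597 had 1 name, 144 of them from the study's supplement and the others from the platform annotation, 81 had several names and 8639 had none. Symbols were updated with a RefSeq gene table (GRCg7b). LB 54 was compared with LB 36 by lmFit and eBayes (limma 3.58.1, R 4.3.3), with Benjamini-Hochberg adjustment, and the script was tested on simulated data. The study's methods name a t-test, which was an alternative (the methods' t-test). A gene in a list was its brightest tested row, and no list was tested as a set. Components were compared by 100000 permutations.

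Named genes were, by rule, the 10 named rows in each direction with the smallest p, the 5 rows with the smallest p of any kind, the 5 named rows in each direction with the largest difference, 16 genes picked beforehand, up to 2 genes in each direction per list and up to 2 microRNA rows in each direction, and the 5 named rows with the smallest p between the lines. SGK1, PDK4, MKI67, PCNA, DIO2 and SLC4A1 stand outside this rule and were chosen after their values were seen. OSR1, TAC1, DLX6 and TWIST2 also stand outside it and were named for their weights on component 2. The comparison, the lists and the rule were chosen with earlier results of these data known. Alternatives changed the filter, the test, the hens in the fit, hen pairs, array sets, the variance model, weights, normalization, the table and the rows tested.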

Additional observations from a re-analysis of the deposited data

How the results depend on the processing

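No row passed the adjusted threshold under any alternative except within the smaller set of arrays (4 LB 54 and 4 LB 36 hens). There 15 rows did, 13 of them unnamed rows with a single number as identifier and none with a single gene name. These hens form 2 pairs of consecutive numbers per group size. The fit counted them as independent hens, so its p-values may be too small. The count at the unadjusted limit was 589 with consecutively numbered hens as random blocks and 789 with pair means as replicates, against 1223. It was 1275 with the pairs and the array set as blocks together, 1696 with the array set alone as a block and 1828 with array weights. Within the larger set of arrays it was 1542, and within the smaller 945. The pairs are a reading of the numbering, with a correlation within pairs of 0.324, or 0.138 with the array set in the model. Leaving out the unnamed single-number rows, an alternative chosen after seeing the data, gave 0 rows at the adjusted and 1205 at the unadjusted limit. For the difference between the lines the count was 343 with hen pairs as a block and 1220 with the array set as a block, against 802. Component 3, at -0.89, was 0.92 with rows scaled to unit variance, where the sign of a component is arbitrary. Of 66 named rows, 57 kept their direction under each of the 16 alternatives that could be run on them. Most of these alternatives could not turn a direction. Changes of the filter, the test, the hens in the fit, hen pairs, the variance model, the table or the rows tested leave the estimate of a row as it is. Only array sets, array weights and renormalization could turn it. Within the smaller set of arrays the direction turned for KYNU (-0.42), CRH (0.0873), OXT (0.0410), EGR1 (-0.00072), NPY (0.24), GRPR (-0.10), SNCG (0.0687) and IL18 (-0.0347), and DRD1 was 0.0201 within the larger set and 0.0219 with array weights. The cause was not tested. No paired analysis was possible because every hen has a number of its own that no hen of the other group size shares. Each group had more than 5 hens, so hens were not left out in turn.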
